A study of Homo sapiens with 21 samples.

Results

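Chromatin accessibility was followed at the genes of KALRN and 9 other guanine nucleotide exchange factors of the GTPase RAC, namely TRIO, TIAM1, TIAM2, VAV2, VAV3, DOCK1, DOCK4, PREX1 and PREX2. A site was assigned to a gene where the deposited annotation gave that gene as the nearest one or named it as the host of the intron, exon, promoter or gene end in which the site lay, and this gave 715 of the 367900 consensus sites, of which 59 belonged to KALRN and 656 to the other 9 genes. The gene set was chosen by the measured change at KALRN, where 1 site held one of the largest falls after silencing of both genes, so that KALRN values in that contrast are described without a test. The measurements came from ATAC-seq, in which the Tn5 transposase cuts open DNA so that reads over a site rise with its accessibility, in SK-N-BE(2) cells, an established human neuroblastoma line. All cells grew in Iscove's medium with serum and insulin, transferrin and selenium, were transduced with lentivirus carrying shRNA plasmids, and were collected 72 h later. The 7 groups held 3 libraries each. One was a non-silencing Control, 2 received an shRNA to ARID1A (named shARID1A.2 or shARID1A.4), 2 an shRNA to ARID1B (named shARID1B.2 or shARID1B.3), and in the last 2, named shARID1A/B.2.3 or shARID1A/B.4.2, both were silenced together. The proteins of these genes are alternative, mutually exclusive subunits specific to BAF, a complex that moves nucleosomes. All groups are 1 cell line, the extent of each knockdown was not measured by these libraries, and where nothing says that libraries came from separate cultures the p-values measure only the spread between these libraries.

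RAC is a small GTPase, a molecular switch that is inactive when bound to GDP and active when bound to GTP, and in its active form it drives actin assembly at the edge of moving cells and growing neurites. Exchange factors switch it on by releasing GDP, GTPase-activating proteins switch it off, and effectors such as the PAK kinases and the WAVE complex carry the signal on. KALRN encodes kalirin, a neuronal factor of dendritic spines with one exchange domain for RAC and one for RHOA, and TRIO encodes its closest relative, known from axon guidance. TIAM1 and TIAM2 act on RAC, VAV2 and VAV3 act downstream of receptor tyrosine kinases, DOCK1 and DOCK4 belong to an unrelated family that works with ELMO scaffolds, and PREX1 and PREX2 respond to phosphoinositide lipids and G protein subunits.

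Libraries held 16140029 to 44472230 reads in sites (median 22614452), and the 4 deepest were replicates 1 and 2 of shARID1B.3 and of shARID1A/B.2.3. Levels are given as CPM (read counts scaled to a fixed total per library) after TMM scaling, which removes differences in total signal, and changes as log2 ratios with their standard error (SE). A site was called, as lower or as higher, where the adjusted p (the FDR, or false discovery rate) was under 0.01 in the edgeR quasi-likelihood test over 357029 sites that passed a filter on low counts, and every FDR below is from this test unless DESeq2 is named. Promoter sites took up between 19.98 and 20.58% of reads in the Control group, against 23.37 to 25.06% with the combinations, and scaling on promoter sites alone moved the median log2 change of all sites after combined silencing from 0.03 to -0.20, so that changes at promoters are changes relative to the other sites. Of the identity genes of sympathetic neurons and neuroblastoma, PHOX2A, HAND2, GATA3, DBH and TH had a promoter site in Control with 15.9, 13.3, 21.2, 4.10 and 2.57 CPM per kb, whereas no promoter site was listed for ISL1. Among 7 markers of other cell types a promoter site was listed only for EPCAM (5.74 CPM per kb) and KRT8 (1.28 CPM per kb), with none for the blood, liver and endothelial genes; their part in the results was not tested. In these bulk libraries a site that is less open in every cell and a site that is open in fewer cells cannot be told apart.

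The central 300 bases of 5 sites on which the results turn are given first, read from the plus strand of GRCh38. Capitals mark matches, on either strand, to 4 short motifs, namely TGANTCA (a loose form of the AP-1 motif, with any base at N), AGATAA (bound by GATA factors), GGAATG (bound by TEAD factors) and CAGCTG (an E-box read by basic helix-loop-helix factors). The first sequence is the KALRN site with the largest fall, the next 2 are KALRN sites that told ARID1A from ARID1B silencing, the fourth is the DOCK1 site with the smallest p, and the last is a VAV2 site at which the shRNA combinations differed.
KALRN intron 1 of 33, chr3:124126994-124127293: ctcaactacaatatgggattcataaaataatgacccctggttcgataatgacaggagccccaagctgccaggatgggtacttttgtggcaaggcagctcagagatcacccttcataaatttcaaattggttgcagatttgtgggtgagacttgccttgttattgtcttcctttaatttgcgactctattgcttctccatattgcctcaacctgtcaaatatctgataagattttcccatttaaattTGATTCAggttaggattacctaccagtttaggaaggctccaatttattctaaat
KALRN intron 12 of 30, chr3:124396112-124396411: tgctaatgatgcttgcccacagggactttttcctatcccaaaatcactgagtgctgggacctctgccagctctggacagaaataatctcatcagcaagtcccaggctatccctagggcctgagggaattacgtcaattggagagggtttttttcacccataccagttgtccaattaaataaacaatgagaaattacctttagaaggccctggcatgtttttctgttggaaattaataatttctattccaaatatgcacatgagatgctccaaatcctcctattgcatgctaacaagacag
KALRN intron 1 of 26, chr3:124600558-124600857: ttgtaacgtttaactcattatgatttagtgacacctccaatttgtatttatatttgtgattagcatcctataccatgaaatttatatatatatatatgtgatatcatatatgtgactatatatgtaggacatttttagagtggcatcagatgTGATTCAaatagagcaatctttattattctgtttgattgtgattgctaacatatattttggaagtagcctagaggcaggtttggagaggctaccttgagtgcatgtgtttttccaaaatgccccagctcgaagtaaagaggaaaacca
DOCK1 intron 46 of 51, chr10:127424509-127424808: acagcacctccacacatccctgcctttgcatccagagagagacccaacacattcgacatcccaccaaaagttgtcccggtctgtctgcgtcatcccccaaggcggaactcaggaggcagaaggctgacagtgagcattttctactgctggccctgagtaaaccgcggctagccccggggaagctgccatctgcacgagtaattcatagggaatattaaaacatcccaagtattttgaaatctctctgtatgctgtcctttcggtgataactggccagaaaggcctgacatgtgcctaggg
VAV2 intron 4 of 27, chr9:133814182-133814481: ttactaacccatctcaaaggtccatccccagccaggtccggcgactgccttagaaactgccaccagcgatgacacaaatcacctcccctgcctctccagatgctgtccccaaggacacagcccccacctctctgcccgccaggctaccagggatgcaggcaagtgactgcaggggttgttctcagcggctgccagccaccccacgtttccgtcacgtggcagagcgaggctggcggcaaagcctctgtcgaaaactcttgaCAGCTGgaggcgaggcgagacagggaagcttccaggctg
The KALRN site with the largest fall held 1 match to the loose AP-1 letters at base 247 of the window, and the KALRN site in intron 1 of 26 held 1 at base 153. Each of these matches read TGATTCA, with T at the N. The VAV2 site held 1 E-box, whereas no match was found in the KALRN site of intron 12 or in the DOCK1 site. Of all 367895 sites with a full window, 10.89% held the AP-1 letters, 16.94% GATA, 16.87% TEAD and 17.6% the E-box. Among the 59 KALRN sites the shares were 16.95%, 18.64%, 22.03% and 28.81%, which correspond to 10, 11, 13 and 17 sites. Among the sites of the other 9 genes that were lower after combined silencing, 22.68% held the GATA letters against 16.22% of those that were not called, and over all sites of the series the same shares were 24.71% and 16.48%. The GC content of the windows had a median of 44% in the 97 lower sites of these genes, 47% in the 524 uncalled ones and 57.17% in the 14 higher ones. Over all tested sites the same medians were 43.67%, 47% and 61.67%. Each motif was searched on its own, so that matches may overlap, and they describe letters, not bound factors.

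KALRN (chromosome 3, positions 124033369 to 124726325, plus strand) carried 59 sites over 693 kb, of which 56 were intronic, 1 lay at the promoter, 1 in an exon and 1 at a gene end, and 58 passed the filter on low counts. Only 4 of them had KALRN as the nearest gene name, and for the other 55 the annotation gave another gene, such as a microRNA gene, as nearest. Summed over its sites and divided by their length, accessibility was 4.11, 3.25 and 4.15 CPM per kb in the Control libraries (replicates 1, 2 and 3). It measured 3.16, 2.87 and 3.12 with shARID1A.2 and 3.10, 2.76 and 2.91 with shARID1A.4, against 3.30, 3.73 and 3.47 with shARID1B.2 and 4.06, 3.93 and 3.59 with shARID1B.3. All 6 ARID1A libraries therefore lay below all 6 ARID1B libraries and all 3 Control libraries, whose ranges overlapped. The combinations gave 2.94, 2.38 and 2.90 (shARID1A/B.2.3) and 2.70, 2.60 and 2.83 (shARID1A/B.4.2), with every library below the lowest Control library. Control replicate 2 and shARID1A/B.2.3 replicate 2 were each the lowest of their group here and in PREX1 and VAV2, and the highest of their group in PREX2.

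After combined silencing, the median log2 change of the 58 tested KALRN sites was -0.45, against 0.03 for all sites, and 14 sites had a log2 change of -1 or less. At 21 of the 59 sites all 6 combination libraries lay below all 3 Control libraries, a pattern held by 10.6% of all sites. KALRN was chosen by its fall in this contrast, so its difference from all sites is partly built in. These values carry no test.

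The site that stood behind this choice lay in the first intron (chr3:124126549-124127737, 1189 bases, intron 1 of 33), with its centre 93774 bases from the gene start and 5845 bases from MIR5002, a microRNA gene that the annotation names as nearest. It held 7.55, 6.45 and 7.30 CPM in Control, 2.08, 1.87 and 1.98 with shARID1A.2, and 1.37, 1.06 and 1.57 with shARID1A.4. With the ARID1B shRNAs it held 1.14, 2.14 and 1.56 (shARID1B.2) and 1.56, 1.63 and 1.26 CPM (shARID1B.3). The combinations left 0.985, 0.558 and 0.835 CPM (shARID1A/B.2.3) and 0.941, 1.15 and 0.835 CPM (shARID1A/B.4.2). Each of the 18 silenced libraries thus lay below each Control library, and the log2 changes were -3.03 with both genes silenced, -2.13 with ARID1A and -2.19 with ARID1B. The comparisons that did not enter the choice found no call: ARID1A and ARID1B silencing differed by 0.06 (SE 0.154, FDR 0.912), the combinations by -0.35 (SE 0.262, FDR 0.456), the ARID1A shRNAs by 0.58 (SE 0.222, FDR 0.135) and the ARID1B shRNAs by -0.07 (SE 0.209, FDR 0.891). A p that misses the threshold does not show that the values are equal.

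**Figure D1:**
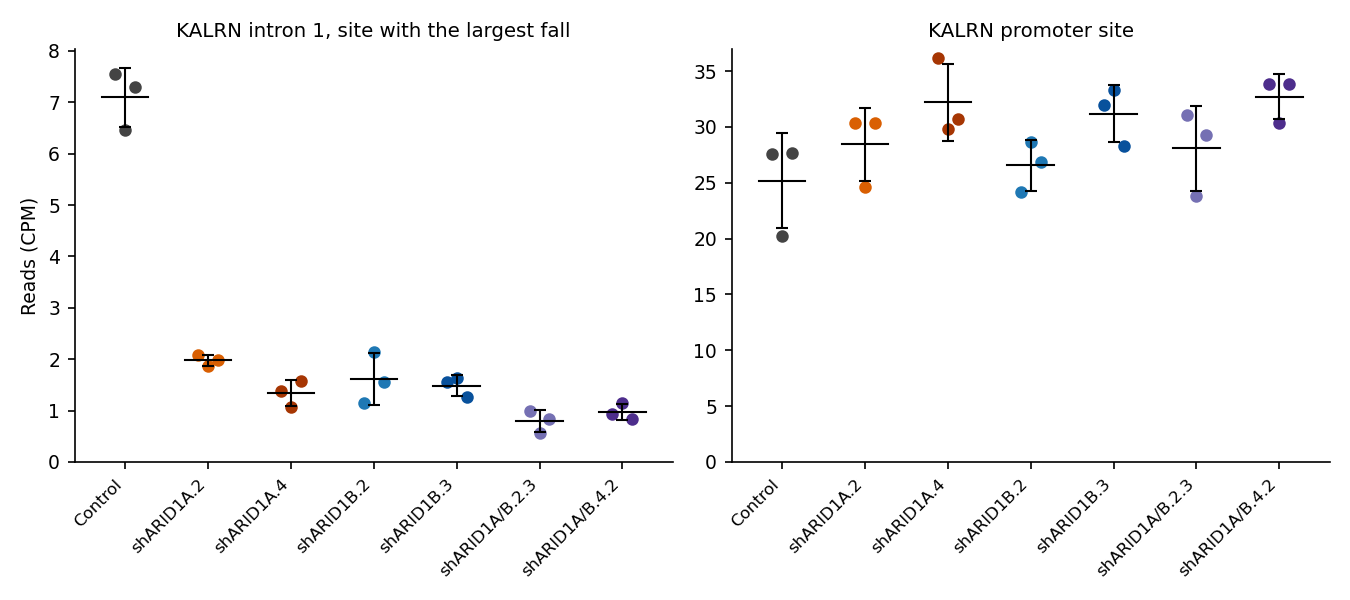
Reads at the KALRN first-intron site with the largest fall (left) and at the KALRN promoter site (right), in CPM on linear axes from 0, for each of the 7 groups of 3 libraries; points are libraries, horizontal lines means and bars SD. The left site falls from 6.45 to 7.55 CPM in Control to at most 2.14 CPM in every silenced library, whereas the promoter libraries of all groups overlap between 20.3 and 36.2 CPM.

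The KALRN promoter site (chr3:124032317-124034663, promoter-TSS) showed no such fall. It held 27.6, 20.3 and 27.7 CPM in Control, and between 23.8 and 36.2 CPM in the silenced libraries. Its log2 change after combined silencing was 0.27 with TMM, and ARID1A and ARID1B silencing differed there by 0.07 (SE 0.07, FDR 0.673).

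Within 50 kb of the first-intron site lay 11 other consensus sites, all of them KALRN sites. Upstream, chr3:124083905-124085039 held 3.75, 3.16 and 3.33 CPM in Control and 0.743 to 2.04 CPM in the silenced libraries, with log2 changes of -1.74 for the combinations, -1.36 for ARID1A silencing and -1.02 for ARID1B silencing. Downstream, chr3:124157795-124159508 held 16.9, 14.8 and 17.7 CPM in Control, 6.33 to 11.7 CPM with the ARID1A shRNAs and 10.3 to 13.2 CPM with the ARID1B shRNAs. This site was lower with ARID1A than with ARID1B silencing by 0.43 on the log2 scale (SE 0.081, FDR 4.35e-05), although the ARID1A shRNAs themselves differed by 0.63 (SE 0.12, FDR 0.000121; 0.53 and FDR 0.0116 without shARID1A.4 replicate 2). The most open of the neighbours, chr3:124174188-124175522, held 24.5, 19.0 and 23.1 CPM in Control, 13.0 to 15.8 CPM with the ARID1A shRNAs and 18.9 to 21.3 CPM with the ARID1B shRNAs. Its 6 ARID1A libraries lay below its 6 ARID1B libraries, with a difference of -0.48 (SE 0.071, FDR 1.75e-07).

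The other neighbours were weaker. Among them, 3 sites held log2 changes of -0.78 (chr3:124121488-124122349), -1.12 (chr3:124125322-124125605) and -1.33 (chr3:124165339-124165613, at an annotated gene end) after combined silencing, from 0.616 to 2.16 CPM in the Control libraries. The sites at chr3:124107545-124108133, chr3:124117725-124119257 and chr3:124142261-124142818 had log2 changes of -0.35, -0.49 and 0.13. In contrast, chr3:124079129-124079583 and chr3:124144044-124144605 had values of 1.05 and 1.03, from 0.200 to 0.433 CPM in Control to 0.488 to 1.15 CPM in the combination libraries. The first intron thus held values on both sides of 0 within 50 kb, which are given without a test after combined silencing.

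ARID1A and ARID1B silencing were compared over libraries other than the Control and combination libraries from which KALRN was chosen. The fit still shares its scaling and its dispersion estimates with those libraries. Its test counts the spread between the libraries of a group, not that between the 2 shRNAs of a gene. In this comparison 12 of the 58 tested KALRN sites (20.7%) were lower with ARID1A silencing and none was higher, where 3.69% of all tested sites were lower and 1.05% higher. DESeq2 called 9 lower and 0 higher, and at an unadjusted p under 0.05 edgeR found 21 lower and 3 higher. The median difference over KALRN sites was -0.30 on the log2 scale, against 0.01 over all sites, and 42 of the 58 sites had a negative difference, against 49% of all tested sites. At 5 of the 59 sites every one of the 6 ARID1A libraries lay below every ARID1B library, which was so at 1.48% of all sites. Of 33 KALRN sites with a mean of at least 1 CPM, 11 were lower, where 6.34% of all such sites were lower and 1.87% higher. Of the 12 called sites, which differed by -1.04 to -0.30, 9 were also called lower in ARID1A silencing against Control, 2 were called lower and 1 higher in ARID1B silencing against Control. These comparisons against Control use the Control libraries from which KALRN was chosen. The like overlap over all sites is not given here, so whether it is particular to KALRN was not tested.

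**Figure D2:**
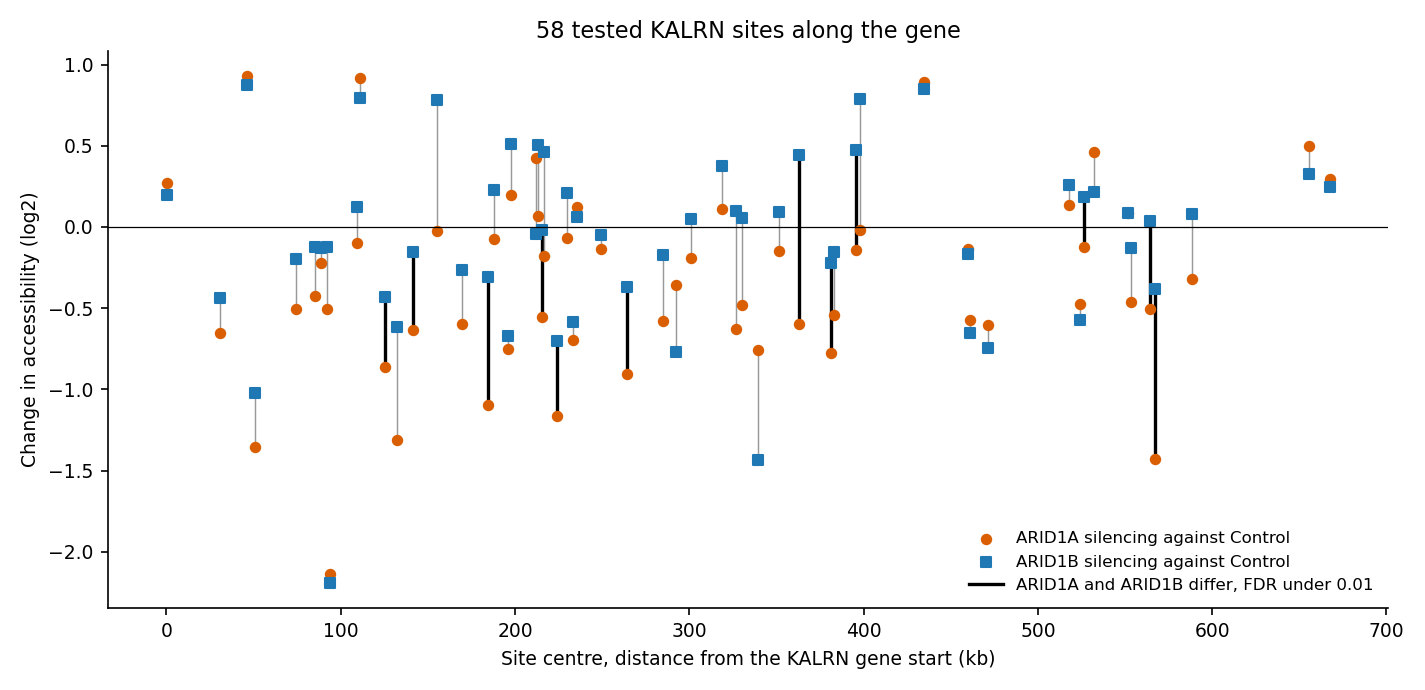
Log2 change of accessibility against Control at the 58 tested KALRN sites, plotted at the distance of the site centre from the gene start in kb; circles are ARID1A silencing, squares ARID1B silencing (means of 2 shRNAs each), and thick black lines join the 12 sites at which they differed at FDR under 0.01. At each of these 12 sites the circle lies below the square, and at the deepest site, 93774 bases from the start, the symbols lie at -2.13 and -2.19.

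A KALRN site in intron 12 of 30 (chr3:124395100-124397422) moved in opposite directions with the silenced genes. It held 14.7, 12.7 and 14.5 CPM in Control, 6.93, 6.82 and 9.03 with shARID1A.2, 11.1, 10.7 and 11.7 with shARID1A.4, 15.3, 20.2 and 18.6 with shARID1B.2, and 19.6, 20.3 and 19.6 with shARID1B.3. The ARID1A libraries all lay below Control and the ARID1B libraries all above it, with log2 changes of -0.60 (SE 0.096, FDR 9.83e-07) and 0.44 (SE 0.093, FDR 0.000315), in comparisons that share the Control libraries used to choose KALRN. The mean of the ARID1A shRNAs differed from that of the ARID1B shRNAs by -1.04 (SE 0.078, FDR 3.02e-19). This SE leaves out the spread between the shRNAs of a gene. The combinations held 8.34, 7.41 and 8.62 CPM (shARID1A/B.2.3) and 10.5, 10.8 and 13.1 CPM (shARID1A/B.4.2), below every ARID1B library and close to the 6.82 to 11.7 CPM of the ARID1A libraries. The ARID1A shRNAs differed there by -0.56 (SE 0.119, FDR 0.0008) and the combinations by -0.51 (SE 0.113, FDR 0.000824), and the first of these calls was lost without shARID1A.2 replicate 1 (-0.50, FDR 0.0108) or replicate 2 (-0.48, FDR 0.0214), the second without shARID1A/B.2.3 replicate 2 (-0.45, FDR 0.01), without shARID1A/B.4.2 replicate 3 (-0.41, FDR 0.0382) and with scaling on promoter sites (-0.32, FDR 0.0268).

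Towards the end of the gene, a site in an intron annotated as 1 of 26 of a shorter transcript (chr3:124599582-124601832) separated the genes to the same extent. It held 7.31, 5.42 and 7.86 CPM in Control, 2.67, 2.80 and 3.41 with shARID1A.2, 2.43, 1.89 and 2.25 with shARID1A.4, 4.36, 4.06 and 4.46 with shARID1B.2, and 6.61, 6.62 and 5.88 with shARID1B.3. The 6 ARID1A libraries lay below all others apart from the combinations, at 1.56 to 2.55 CPM, and the difference between ARID1A and ARID1B silencing was -1.04 (SE 0.111, FDR 2.62e-12). The ARID1B shRNAs also differed from each other, by 0.57 (SE 0.135, FDR 0.00123), a call lost without shARID1B.2 replicate 2 (0.54, FDR 0.0113), without shARID1B.3 replicate 2 (0.55, FDR 0.0104) and with scaling on promoter sites (0.47, FDR 0.013).

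At 2 other KALRN sites, singled out after their values were seen, the shRNAs of 1 gene differed. In intron 33 of 58 (chr3:124558884-124560755), shARID1B.3 gave 31.6, 30.2 and 24.4 CPM against 12.4, 14.4 and 14 with shARID1B.2 (1.09, SE 0.102, FDR 8.77e-15), with Control between them at 18, 15 and 19.2. The combinations kept this order, with 20.8, 18 and 21.3 CPM in shARID1A/B.2.3 against 11, 9.94 and 11.4 in shARID1A/B.4.2 (0.89, SE 0.105, FDR 1.59e-10). In intron 4 of 30 (chr3:124266339-124267129), by contrast, shARID1B.3 lay below shARID1B.2 by 0.68 (SE 0.12, FDR 7.92e-06), shARID1A.2 above shARID1A.4 by 0.69 (SE 0.129, FDR 7.18e-05), and shARID1A/B.2.3 above shARID1A/B.4.2 by 0.58 (SE 0.144, FDR 0.00296). That last call did not hold without shARID1A/B.2.3 replicate 1 (0.55, FDR 0.0139) or replicate 2 (0.54, FDR 0.0221), nor without shARID1A/B.4.2 replicate 2 (0.59, FDR 0.0152) or replicate 3 (0.47, FDR 0.0636). A site in intron 25 of 30 (chr3:124467785-124468654), also singled out after its values were seen, rose with ARID1A (0.89, SE 0.189, FDR 0.000261) and with ARID1B silencing (0.85, SE 0.187, FDR 0.000635). Both comparisons share the Control libraries used to choose KALRN, so these FDRs are not independent of that choice. The site held 1.25, 1.11 and 1.24 CPM in Control and 1.63 to 3.05 CPM in the 18 silenced libraries, without overlap. Over the gene, the ARID1B shRNAs differed at 12 of 58 tested KALRN sites. Of these, 5 were lower and 7 higher with shARID1B.3 (8.62% and 12.1%, against 4.25% and 2.96% of all tested sites). The ARID1A shRNAs differed at 4 KALRN sites, 1 lower and 3 higher with shARID1A.2 (1.72% and 5.17%, against 1.84% and 0.737%).

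**Figure D3:**
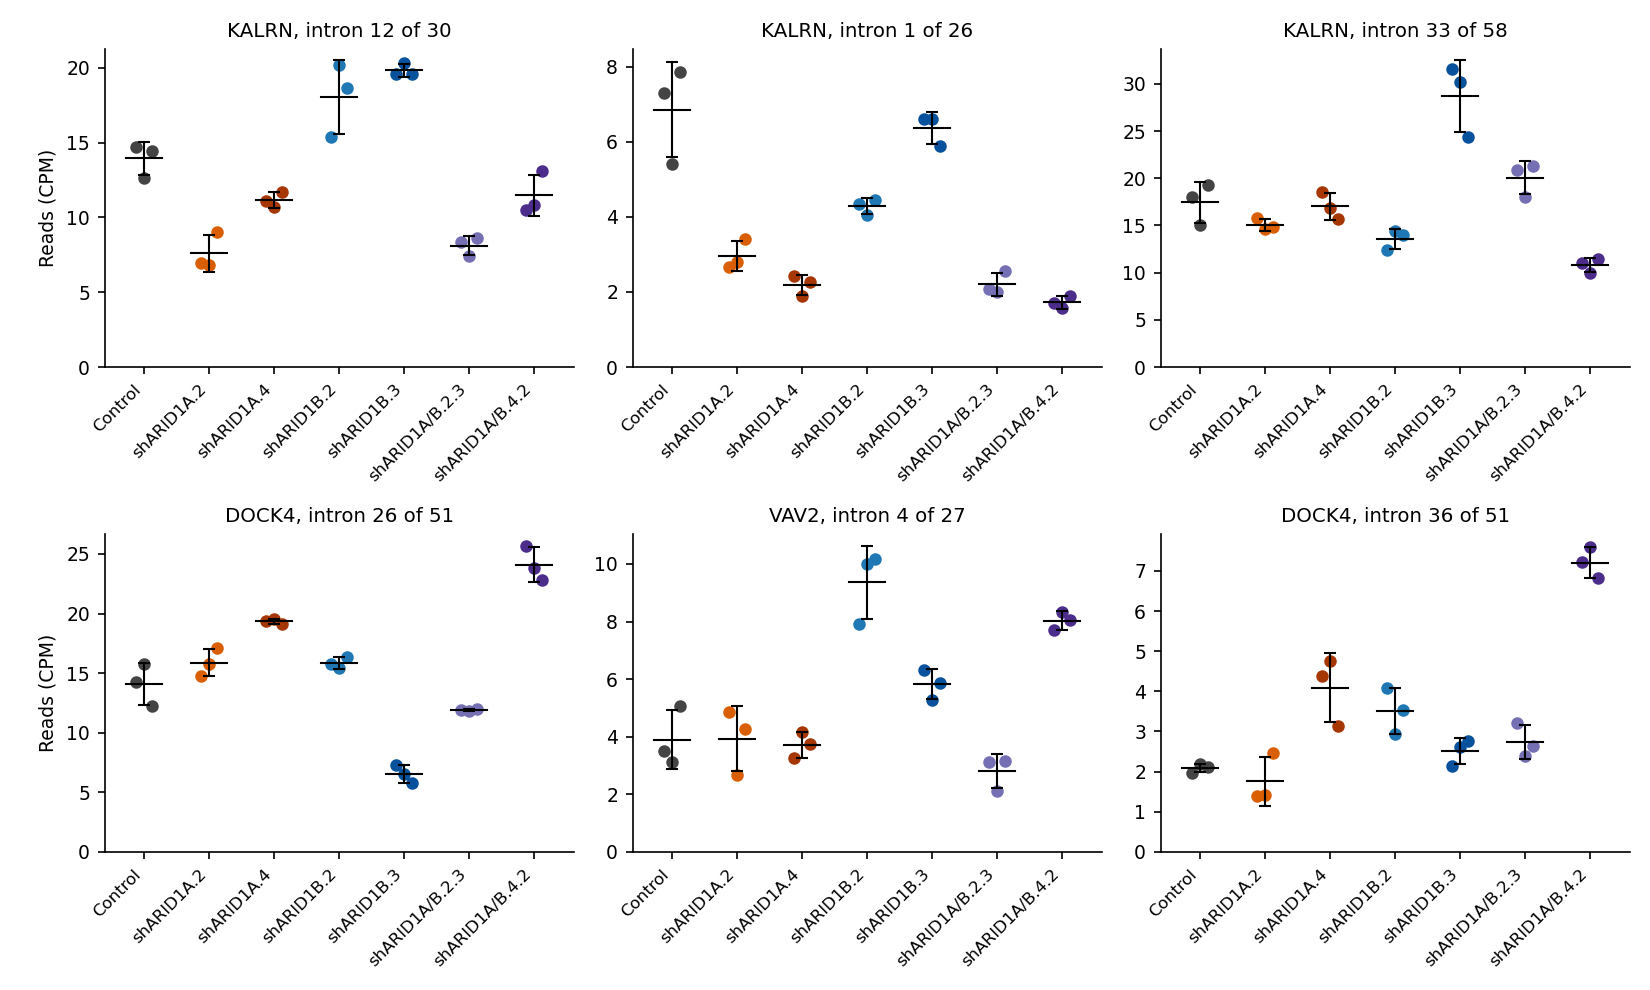
Reads in CPM (linear axes from 0) in each library of the 7 groups at 3 KALRN sites (top) and at 2 DOCK4 sites and 1 VAV2 site (bottom); points are libraries, lines means and bars SD (n = 3). The first 2 KALRN panels separate the ARID1A from the ARID1B shRNAs, the third separates shARID1B.3 from shARID1B.2, and in the DOCK4 and VAV2 panels shARID1A/B.4.2 lies above shARID1A/B.2.3 in every library.

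The 9 other genes carried 656 sites, of which 635 passed the filter on low counts. After combined silencing 97 of these were lower (15.3%) and 14 higher (2.20%), against 10.3% and 3.43% of all tested sites, and their median log2 change was -0.06 against 0.03. Among the 333 sites with a mean of at least 1 CPM, 88 were lower (26.4%) and 14 higher, against 16.5% and 6.2% of all sites of that level. The lower sites had a median log2 change of -0.85, with 33 at -1 or less, and the higher ones a median of 0.48. DESeq2 called 76 lower and 12 higher, and scaling on promoter sites gave 140 lower and 3 higher. Taken singly, shARID1A/B.2.3 lowered 97 and raised 14 of these sites (background 10.4% and 2.85%) and shARID1A/B.4.2 lowered 63 and raised 20 (background 7.37% and 3.97%). Of the sites, 53 were lower and 5 higher with each, and 2 were called in opposite directions. The like overlap over all tested sites is not given here, so whether it is particular to these genes was not tested.

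The genes differed in how many sites passed. TIAM2 had 13 of 48 lower (27.1%), PREX1 6 of 24 (25%), DOCK1 12 of 54 (22.2%), TRIO 21 of 117 (17.9%), DOCK4 17 of 96 (17.7%), VAV3 16 of 99 (16.2%), VAV2 5 of 40 (12.5%) and TIAM1 7 of 61 (11.5%). The counts for VAV2 and TIAM1 depended on the test, since DESeq2 called 1 and 2 sites lower. PREX2 stood apart with none of 96 lower and 1 higher; 2 sites were lower and 22 higher at an unadjusted p under 0.05, and DESeq2 called 0 lower and 1 higher. In the opposite direction no site was called in TIAM2, VAV2 and DOCK1 by edgeR or DESeq2, with 0, 9 and 2 sites higher at an unadjusted p under 0.05. These differences between genes were not tested.

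**Figure D4:**
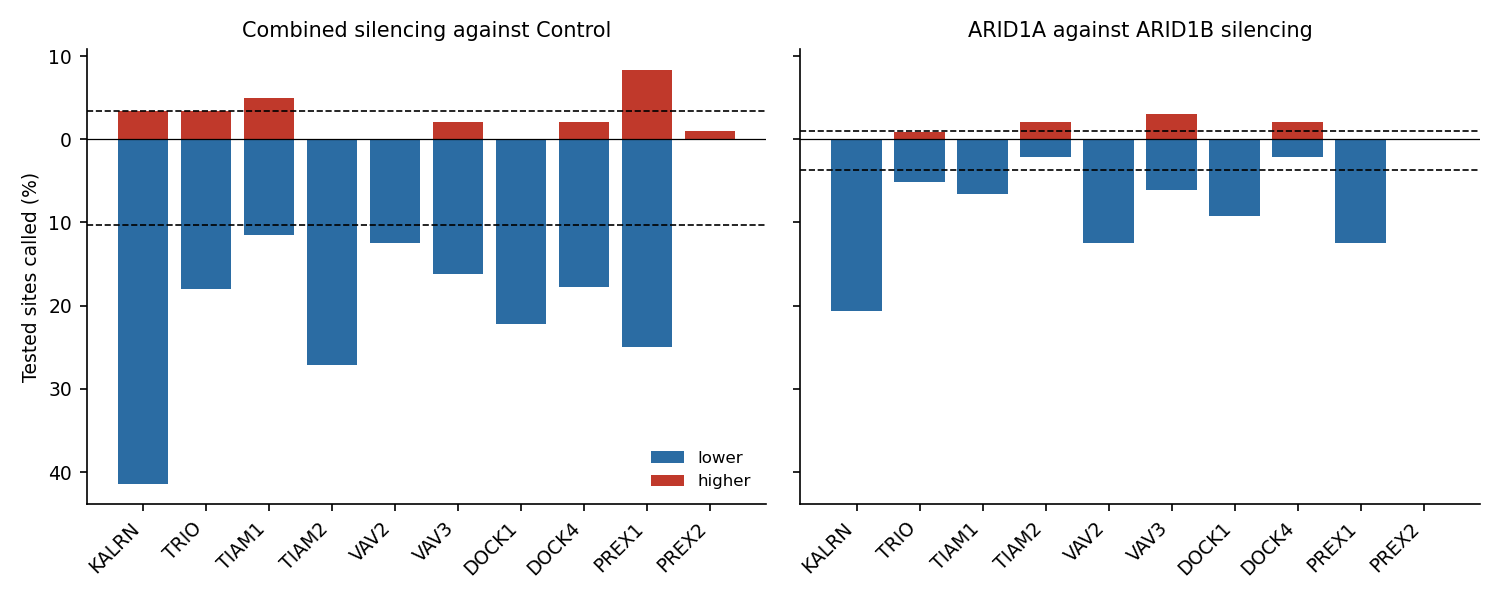
Share of tested sites of each gene called at FDR under 0.01, in percent, with higher calls above and lower calls below the zero line, for combined silencing against Control (left) and ARID1A against ARID1B silencing (right); dashed lines are the shares over all tested sites (left 10.3% lower and 3.43% higher, right 3.69% and 1.05%). On the right KALRN has 20.7% of its sites lower and PREX2 none. The left KALRN bar rests on the values by which the gene was chosen and is not read as a result.

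TRIO, the relative of KALRN, carried the most sites, 117 between its gene body and the intergenic stretch before it. The site with the smallest p lay 21600 bases before the start site (chr5:14121545-14122672), where Control held 6.98, 7.19 and 7.98 CPM and the combinations 2.63 to 3.21 CPM (-1.31, SE 0.112, FDR 2.01e-17). The single shRNAs gave different levels for the same gene, with 5.48 to 6.24 CPM in shARID1A.2 and 2.57 to 3.02 in shARID1A.4 (1.07, SE 0.148, FDR 4.97e-08), and 5.93 to 6.96 in shARID1B.2 and 3.65 to 4.12 in shARID1B.3 (-0.73, SE 0.129, FDR 8.18e-06). The shARID1A.4 libraries thus overlapped the combinations, those of shARID1B.3 lay above them and below Control, and those of the other 2 shRNAs lay higher. The promoter-TSS site of an internal TRIO transcript (chr5:14310256-14311421) held 0.722 to 1.16 CPM in Control, with a log2 change of 0.12 (SE 0.228, FDR 0.778), which turned to -0.11 with scaling on promoter sites.

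TIAM1 and TIAM2 encode related proteins. TIAM2 lost accessibility at 2 sites that the deposited annotation calls intergenic, both of which lie inside the gene as GENCODE draws it. The site with the smallest p (chr6:155039742-155040817) held 17.9, 16.9 and 16.1 CPM in Control, 3.76 to 5.19 CPM in shARID1A/B.2.3 and 6.27 to 7.70 CPM in shARID1A/B.4.2 (-1.58, SE 0.097, FDR 1.12e-25). Here ARID1A silencing (-0.78, FDR 1.9e-10) lay below ARID1B silencing by 0.46 (SE 0.08, FDR 8.84e-06). The combinations differed by -0.63 (FDR 0.000208), a call lost without shARID1A/B.2.3 replicate 2 (-0.49, FDR 0.0137). A short site of 267 bases at chr6:155016047-155016313, singled out after its values were seen, fell from 2.50, 2.71 and 2.81 CPM to 0.396 to 0.762 CPM (-2.23, SE 0.193, FDR 3.3e-17), the largest fall among the sites of the 9 genes named here. The summed level of TIAM2 was 2.81 to 3.17 CPM per kb in Control and 1.65 to 2.25 in the combination libraries, without overlap, whereas that of TIAM1 was 3.21 to 3.40 in Control, 3.29 to 3.42 in shARID1A/B.2.3 and 3.97 to 4.12 in shARID1A/B.4.2. An intronic TIAM1 site 440 bases from an annotated start (chr21:31343243-31344625), also singled out later, showed the same split between combinations, with 6.48 to 6.96 against 10.2 to 11 CPM (-0.67, SE 0.112, FDR 4.25e-06).

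VAV3 lost accessibility before its start and inside the gene. An intergenic site 35970 bases before the start (chr1:107999993-108001780) held 12.9, 15.2 and 13.1 CPM in Control, 7.10 to 8.06 with the ARID1A shRNAs, 6.22 to 10.4 with the ARID1B shRNAs, and 3.78 to 4.53 with the combinations (-1.70, SE 0.097, FDR 1.87e-27). In intron 15 of 19, chr1:107727695-107728516 fell from 6.98, 6.53 and 5.89 to between 1.35 and 2.29 CPM (-1.90, SE 0.132, FDR 2.61e-22), and ARID1A silencing lay below ARID1B silencing by 0.80 there (SE 0.115, FDR 7.82e-08). A site annotated as the promoter of an internal VAV3 transcript (chr1:107785276-107786187) fell from 3.66, 4.11 and 3.73 to 1.10 to 1.67 CPM (-1.49, SE 0.152, FDR 5.93e-14). The last 2 sites were singled out after their values were seen. In VAV2, the site with the smallest p (chr9:133834474-133836965, intron 3 of 27) held 5.34, 4.44 and 6.73 CPM in Control and 2.53 to 4.17 CPM in the combinations (-0.69, SE 0.131, FDR 1.77e-05; -0.51 and FDR 0.0105 without Control replicate 3).

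In DOCK1, the site with the smallest p lay in intron 46 of 51 (chr10:127423855-127425462). Control measured 12.8, 10.8 and 12.5 CPM, the single shRNAs 5.60 to 8.40 CPM, and the combinations 2.30, 3.14 and 2.99 (shARID1A/B.2.3) and 3.85, 3.77 and 4.13 CPM (shARID1A/B.4.2). The steps from Control to single and from single to combined silencing were without overlap, and the log2 changes were -0.92 (FDR 2.3e-12) with ARID1A, -0.61 (FDR 8.15e-07) with ARID1B and -1.85 (SE 0.103, FDR 3.67e-28) with both. DOCK4 had a like series in its first intron (chr7:112017451-112019011), with 9.05, 10.4 and 9.54 CPM in Control, 4.63 to 6.64 CPM with single shRNAs and 2.11 to 3.09 CPM with the combinations (-1.86, SE 0.109, FDR 9.16e-27). The summed level of DOCK1 was 1.93 to 2.19 CPM per kb in Control and 1.34 to 1.5 in the combinations.

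DOCK4 also held the largest rise among member sites of at least 1 CPM, in intron 36 of 51 (chr7:111769605-111771585; 1.08, SE 0.151, FDR 8.07e-09). This average covers unequal combinations. With shARID1A/B.4.2 the site held 7.21, 7.59 and 6.82 CPM, with shARID1A/B.2.3 3.22, 2.39 and 2.64 CPM, and in Control 1.97, 2.18 and 2.12 CPM, so that the combinations differed by -1.40 (SE 0.146, FDR 1.4e-12) and shARID1A/B.2.3 alone did not pass against Control (0.38, FDR 0.127). Among the single shRNAs, shARID1A.4 gave 4.39, 4.76 and 3.13 CPM against 1.40, 1.42 and 2.47 CPM with shARID1A.2 (-1.24, SE 0.184, FDR 3.29e-07).

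PREX1 fell in exon 34 of 40 (chr20:48631262-48633746), from 14.5, 10.1 and 12.9 CPM in Control to 4.40, 3.00 and 3.47 (shARID1A/B.2.3) and 6.68, 4.88 and 5.01 CPM (shARID1A/B.4.2), with a log2 change of -1.49 (SE 0.109, FDR 5.53e-21). The difference between the combinations (-0.62, FDR 0.00153) was lost without shARID1A/B.2.3 replicate 2 (-0.49, FDR 0.0419), without shARID1A/B.4.2 replicate 1 (-0.48, FDR 0.065) and with scaling on promoter sites (-0.44, FDR 0.018). In PREX2 the only site called over both combinations (chr8:68182783-68184011, intron 35 of 39) rose from 1.83, 2.55 and 2.53 to 3.15, 4.02 and 4.09 (shARID1A/B.2.3) and 3.41, 3.13 and 2.74 CPM (shARID1A/B.4.2), by 0.55 (SE 0.147, FDR 0.00265), a call lost without Control replicate 1 (0.42, FDR 0.0656) and with scaling on promoter sites (0.32, FDR 0.137). Against Control, shARID1A/B.2.3 alone gave 4 higher PREX2 sites (4.17%, against 2.85% of all tested sites), with 37 higher at an unadjusted p under 0.05 and 1 by DESeq2. For shARID1A/B.4.2 edgeR and DESeq2 called none, with 5 lower and 8 higher at an unadjusted p under 0.05. The summed level of PREX2 was 1.07 to 1.30 CPM per kb in Control and 1.23 to 1.67 in the combinations, which overlap.

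Sites at the gene starts were counted apart. Of 14 tested sites of the 9 genes that were annotated as promoter-TSS or lay within 1000 bases of a start, 1 was lower and 7 were higher after combined silencing, and of the 621 others 96 were lower and 7 higher. Of the 11 annotated as promoter-TSS alone, 1 was lower and 5 were higher. Over the whole series 4.24% of promoter-TSS sites were lower and 33.4% higher, against 10.5% and 2.36% of the other sites. TRIO rose at its start (chr5:14142581-14145414, singled out after its values were seen) from 58, 56.1 and 56 to 73.6 to 88.3 CPM in the combinations (0.51, SE 0.069, FDR 3.1e-09), and TIAM1 (chr21:31557719-31560149) from 56.8, 53.6 and 54.7 to 71.4 to 79.3 CPM (0.48, SE 0.07, FDR 2.94e-08). These rises were smaller with scaling on promoter sites, at 0.27 (FDR 3.32e-05) and 0.25 (FDR 0.000267).

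The promoters of VAV3 (chr1:107964019-107966266; 0.39, SE 0.082, FDR 0.000122), of DOCK4 and its divergent neighbour ZNF277 (chr7:112205160-112207243; 0.32, SE 0.069, FDR 0.000141) and of PREX1 (chr20:48827164-48828828; 0.49, SE 0.107, FDR 0.000218) were called higher. With scaling on promoter sites they kept the direction but not the call, at 0.16 (FDR 0.12), 0.09 (FDR 0.306) and 0.25 (FDR 0.0247). The start-site regions of VAV2 (chr9:133990838-133995204; 0.20, FDR 0.163), DOCK1 (chr10:126904703-126906475; 0.04, FDR 0.807) and PREX2 (chr8:67951587-67953085; 0.13, FDR 0.433) did not pass, and their values turned to -0.03, -0.19 and -0.09 with that scaling. An internal TIAM2 promoter (chr6:155216016-155217026), at 0.962 to 1.40 CPM in Control, measured -0.11 (FDR 0.794).

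**Figure D5:**
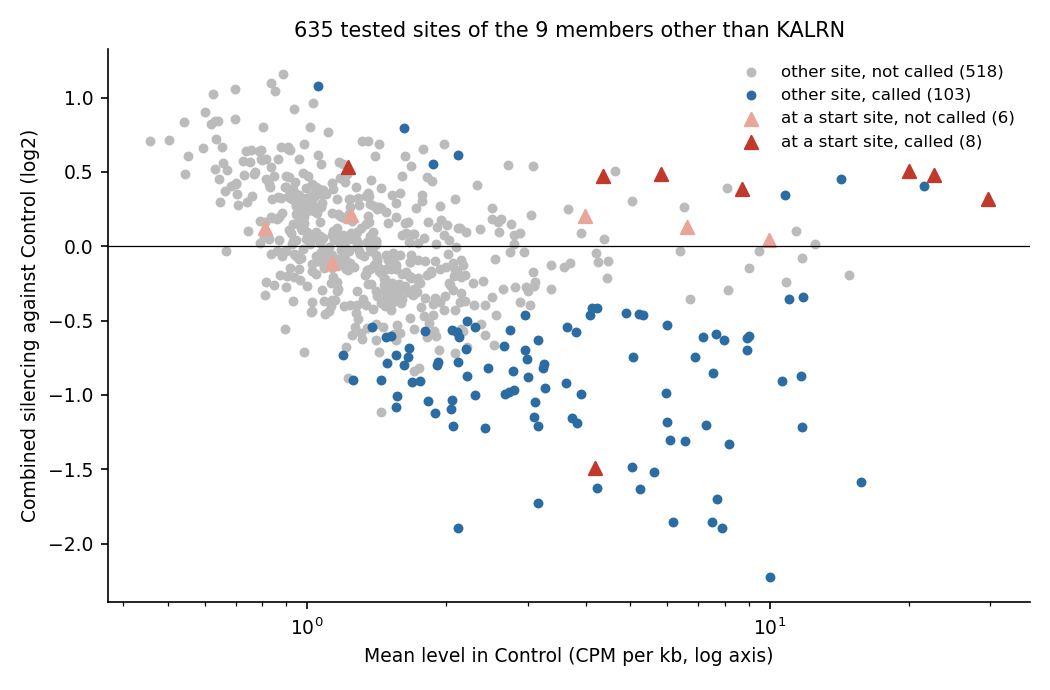
Log2 change after combined silencing against the mean level in Control (CPM per kb, log axis) at the 635 tested sites of the 9 genes other than KALRN; triangles are the 14 sites at a start (red called, pale not called), circles the 621 others (blue called, grey not called). Of the 8 called start sites 7 lie above 0 and the internal VAV3 promoter lies at -1.49, whereas 96 of the 103 called other sites lie below 0; levels and changes share the Control libraries.

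By place in the deposited annotation, 80 of 529 tested intron sites of the 9 genes were lower, 13 of 78 intergenic sites and 3 of 13 exon sites. The like shares over all sites of these classes are not given here. The annotation called 17 of the 51 TIAM2 sites intergenic, although 50 of the 51 lie inside the gene as GENCODE draws it. Over all 635 tested sites of these genes 15.3% were lower. Since most tested sites were intronic, the counts do not show a preference for a place, which was not tested. Of the 97 lower sites, 43 were also lower in ARID1A silencing and 31 in ARID1B silencing against Control, in comparisons that share the Control libraries, and 48 were called in neither. The like overlap over all lower sites of the series is not given here. Whether these counts are particular to the 9 genes was therefore not tested. Against the single-shRNA groups, the combinations were lower at 67 of the 635 sites and higher at 8, where 6.85% of all tested sites were lower and 0.969% higher. The count of 8 moved to 5 without shARID1A.2 replicate 3 or shARID1A/B.4.2 replicate 2 and to 4 without shARID1A/B.4.2 replicate 3.

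With 1 gene silenced, fewer member sites passed. Over all 10 genes, 693 of 715 sites being tested, ARID1A silencing lowered 59 and raised 7 (background 5.37% and 1.67%), and ARID1B silencing lowered 41 and raised 8 (background 3.53% and 1.39%). With scaling on promoter sites these became 97 and 1, and 64 and 5. KALRN gave 16 of the 59 and 8 of the 41 lower sites, from 58 tested, with Control libraries that were also used in its choice. The 9 other genes together had 43 of 635 lower with ARID1A (6.77%) and 33 with ARID1B silencing (5.20%), and among them the share with ARID1A silencing was 12.5% in TIAM2, 11.5% in DOCK4, 11.1% in DOCK1, 8.33% in PREX1, 8.08% in VAV3, 6.84% in TRIO, 2.5% in VAV2 and 1.64% in TIAM1. No PREX2 site was called in either comparison by edgeR or DESeq2, with 3 lower and 3 higher at an unadjusted p under 0.05 for ARID1A and 1 and 1 for ARID1B. The count of 7 higher was unstable, at 4 without Control replicate 2, 3 without Control replicate 3, 11 without shARID1A.2 replicate 2, 4 without shARID1A.2 replicate 3 and 14 without shARID1A/B.2.3 replicate 2. For ARID1B, 25 sites were lower without Control replicate 1 and 4 higher without Control replicate 2.

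Between ARID1A and ARID1B silencing, 32 sites of the 9 other genes were lower with ARID1A and 7 higher (5.04% and 1.10%, against 3.69% and 1.05% of all tested sites), which with KALRN made 44 and 7 of 693. VAV3 and TRIO had 6 lower each, VAV2 and DOCK1 5 each, TIAM1 4, PREX1 3, DOCK4 2 and TIAM2 1. PREX2 had no called site by edgeR or DESeq2, with 3 lower and 4 higher at an unadjusted p under 0.05. The largest difference was in VAV3 (chr1:107726336-107726634, intron 15 of 19), a short and weak site with 0.244 to 0.724 CPM in the ARID1A libraries and 0.782 to 1.43 CPM in the ARID1B libraries (-1.33, SE 0.226, FDR 5.1e-06). The 7 higher sites were 3 without shARID1A.4 replicate 2 and 4 without shARID1B.2 replicate 3.

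In the higher direction the largest difference was in DOCK4, in intron 26 of 51 (chr7:111833346-111835500; 0.78, SE 0.073, FDR 1.27e-14), and it rested on 1 ARID1B shRNA. There shARID1B.3 held 7.26, 6.57 and 5.80 CPM against 15.7, 15.5 and 16.4 CPM with shARID1B.2 (-1.27, SE 0.106, FDR 5.37e-17), where Control held 14.2, 15.7 and 12.3 and the ARID1A libraries 14.8 to 19.5 CPM. The combinations differed in the same direction, with 11.9, 11.8 and 12 CPM in shARID1A/B.2.3 and 25.7, 23.8 and 22.8 CPM in shARID1A/B.4.2 (-1.02, SE 0.098, FDR 4.23e-14). The 2 next sites were VAV3 sites at chr1:107621772-107622869 (0.70, SE 0.186, FDR 0.00652) and chr1:107669263-107670723 (0.57, SE 0.134, FDR 0.00183). Both lost the call with scaling on promoter sites (FDR 0.0218 and 0.0102), and the first also with DESeq2 (FDR 0.0252) and in 9 of the 21 fits that left out 1 library, those without shARID1A.2 replicates 2 or 3, any replicate of shARID1A.4, shARID1B.2 replicates 1 or 3, or shARID1B.3 replicates 1 or 2 (0.64 to 0.72, FDR 0.0123 to 0.0308).

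The combinations differed from each other at some sites of these genes. Between shARID1A/B.2.3 and shARID1A/B.4.2, 38 of the 693 member sites were lower and 5 higher, where 3.79% of all tested sites were lower and 1.43% higher. This split depended on the scaling, since 19 were lower and 18 higher with scaling on promoter sites, and over all sites 13521 lower and 5113 higher calls became 6443 and 11832. The lower count was 24 without shARID1A/B.2.3 replicate 2, and the higher count 2 without shARID1A/B.2.3 replicate 1 or without shARID1A/B.4.2 replicate 2. Of the 5 higher sites 4 were in KALRN, and of the 38 lower sites 8 each were in TRIO and DOCK4, 7 in TIAM1 and 5 in KALRN. The VAV2 site in intron 4 of 27 (chr9:133813554-133815108), singled out after its values were seen, showed the largest difference among the named sites, with 3.12, 2.11 and 3.17 CPM in shARID1A/B.2.3 against 7.71, 8.33 and 8.07 CPM in shARID1A/B.4.2 (-1.56, SE 0.152, FDR 7.16e-14). Its ARID1B libraries, at 7.91, 9.99 and 10.2 CPM with shARID1B.2 and 6.31, 5.27 and 5.88 with shARID1B.3, lay above Control at 3.51, 3.12 and 5.05 CPM and above the ARID1A libraries at 2.68 to 4.84 CPM (-0.95, SE 0.108, FDR 3.25e-11 for ARID1A against ARID1B).

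The shRNAs of 1 gene also differed from each other. Between the ARID1B shRNAs, 39 member sites were lower and 24 higher with shARID1B.3 (background 4.25% and 2.96%), and between the ARID1A shRNAs 16 were lower and 7 higher with shARID1A.2 (background 1.84% and 0.737%). With scaling on promoter sites, the split between the ARID1B shRNAs in the 9 genes other than KALRN moved from 34 lower and 17 higher to 48 and 9, and that between the ARID1A shRNAs from 15 and 4 to 8 and 6. The names of the combinations give the numbers 2 and 3 for one and 4 and 2 for the other. Of the 63 member sites that separated shARID1B.3 from shARID1B.2, 21 also separated the combinations, 19 of them in the same direction, and of the 23 that separated shARID1A.2 from shARID1A.4, 13 did so, 12 in the same direction; over all sites the same counts were 7747 of 25745 with 7549 in the same direction, and 3963 of 9188 with 3680. These comparisons share no library. The 2 deepest libraries of the series were shARID1B.3 and shARID1A/B.2.3 replicates 2, and the part of depth in these differences was not tested.

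Sites elsewhere in the genome followed the first-intron KALRN site across the 21 libraries. Among 181892 other sites with a mean of at least 1 CPM, the median Pearson correlation of log2(CPM + 0.1) with that site was -0.01, and 303 sites were above 0.9, a description over libraries that share groups and scaling. The 5 most alike, taking 1 site per gene, were intergenic sites nearest to LOC102724948 (chr2:20557927-20559306, r = 0.97), TMEM194B (chr2:190583439-190585910, r = 0.968), OPTC (chr1:203555234-203556859, r = 0.964), LOC400940 (chr2:6011232-6013200, r = 0.962) and SBSPON (chr8:73120187-73121388, r = 0.961). Their log2 changes after combined silencing were -1.24, -2.17, -1.39, -1.87 and -1.66. The KALRN site was picked for its large fall, so that these sites fell less is partly built in. The correlations also cover the Control and combination libraries used in that choice. The most alike of the other KALRN sites had a correlation of 0.873.

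Sites of other genes of the pathway were counted by role. For 21 further RAC exchange factors and their ELMO partners, 81 of 514 tested sites were lower and 15 higher after combined silencing (15.8% and 2.92%, against 10.3% and 3.43% of all tested sites). ARID1A silencing lowered 35 of them (6.81%, against 5.37%) and ARID1B silencing 22 (4.28%, against 3.53%). Their strongest falls were in ARHGEF7, a partner of PAK kinases (chr13:111118027-111118459, from 3.33 ± 0.26 to 0.83 ± 0.29 and 1.13 ± 0.25 CPM, SD, n = 3; -1.82, SE 0.166, FDR 3.94e-16), and near FARP1 (chr13:98105388-98106388; -1.74, SE 0.168, FDR 5.12e-15). The median log2 change of this list was -0.07, against 0.03 over all sites.

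For 14 RAC GTPase-activating and sequestering proteins, which hold RAC inactive, 102 of 502 sites were lower and 14 higher after combined silencing (20.3% and 2.79%, against 10.3% and 3.43% of all tested sites, median -0.02). ARID1A silencing lowered 59 of them (11.8%, against 5.37%) and ARID1B silencing 41 (8.17%, against 3.53%). The strongest falls after combined silencing were in SRGAP3 (chr3:9244518-9244958; -2.14, SE 0.196, FDR 4.29e-16) and in ARHGAP22 (chr10:48627653-48628914; -1.94, SE 0.169, FDR 3.63e-17). For 14 RAC effectors 33 of 254 were lower and 13 higher (13% and 5.12%, against 10.3% and 3.43% of all tested sites, median 0.01), and the strongest were 2 sites of CYFIP2, a WAVE complex subunit, at chr5:157358945-157360413 (10.1 ± 0.38 CPM in Control against 2.14 ± 0.16 and 2.17 ± 0.17; -2.23, SE 0.113, FDR 1.48e-30) and chr5:157384971-157385508 (-2.04, SE 0.102, FDR 4.29e-31). Between ARID1A and ARID1B silencing, 24 of 514 exchange factor, 35 of 502 inactivating and 14 of 254 effector sites were lower, and 4, 8 and 5 higher, where 3.69% and 1.05% of all sites were called.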

How the data were processed

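Reads from 21 ATAC-seq libraries of SK-N-BE(2) cells had been mapped to GRCh38 and counted by the authors over consensus sites called on merged replicates. The deposited values used here are these raw read counts per site, in 6 tables, together with 1 annotation that gives the nearest gene and the host feature of each site. The deposited normalized counts and the authors' own log2 ratios and adjusted p values were not used, and for the aligner, the peak caller and any shift of Tn5 cut positions the names and settings were not given in the sources used here. Libraries were grouped by their labels into 7 groups of 3.

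Counts were fitted in 1 model of 7 groups with edgeR 4.0.16 in R 4.3.3 (TMM, filterByExpr with a minimum count of 10, quasi-likelihood test, no covariates), with Benjamini-Hochberg adjustment over 357029 of 367900 sites and a threshold of 0.01. The scripts were tested on simulated data. ARID1A and ARID1B silencing are each the mean of 2 shRNA groups, and combined silencing the mean of both combinations. The SE and FDR of such means leave out the spread between the shRNAs or combinations averaged. Libraries held 16140029 to 44472230 reads in sites, and the error of a weak site is mostly counting error. Within a group, the chi-square per degree of freedom was 1.088 at the lowest, little above counting noise, and 3.349 at the highest.

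The members and gene lists were chosen with earlier results of these data known. Named sites were the KALRN site with the largest fall and all sites within 50 kb of it, the promoter site of each gene or the site nearest to its start, the site with the smallest p after combined silencing in each of the other 9 genes, the largest rise, the 3 largest differences between ARID1A and ARID1B silencing in each direction, the 5 sites elsewhere most correlated with the KALRN site, and for each pathway list the 2 largest changes; other sites are said to have been singled out after their values were seen. A marker gene, 1 list and 1 sequence are not reported here. Tables were handled with pandas 2.3.3 and figures drawn with matplotlib 3.10.9. Alternatives were DESeq2 1.42.0, total-count scaling, scaling on promoter sites, no filter, a replicate block, other thresholds and assignment rules, and leaving out each library.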

Additional observations from a re-analysis of the deposited data

Results flagged for a closer look

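The difference between ARID1A and ARID1B silencing was itself tested at every site, and it was found at 44 member sites that were lower and 7 that were higher with ARID1A silencing (6.35% and 1.01% of 693, against 3.69% and 1.05% of all tested sites). At the KALRN site in intron 12 of 30 (3:124395100) it was -1.04 on the log2 scale, and there the ARID1A libraries lay below and the ARID1B libraries above Control. At the DOCK4 site in intron 26 of 51 (7:111833346) the difference was 0.78, and there the ARID1B shRNAs differed from each other by -1.27.

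The 2 combinations differed from each other at 38 member sites that were lower and 5 that were higher with shARID1A/B.2.3 (against 3.79% and 1.43% of all tested sites; 19 and 18 with scaling on promoter sites). They differed by -1.56 at the VAV2 site in intron 4 of 27 (9:133813554) and by -1.40 at the DOCK4 site in intron 36 of 51 (7:111769605). The ARID1A shRNAs differed at 16 member sites that were lower and 7 that were higher with shARID1A.2, where 1.84% and 0.737% of all tested sites did. The ARID1B shRNAs differed at 39 member sites that were lower and 24 that were higher with shARID1B.3 (against 4.25% and 2.96% of all tested sites), and by 1.09 at the KALRN site in intron 33 of 58 (3:124558884). These results were marked because groups under a like contrast differed by a test of the difference. Groups of 3 libraries are too small to look for single libraries that stand apart, and no values outside the main measurement were used.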

How the results depend on the processing

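Counts of called sites are given as lower and higher. With scaling on promoter sites the higher count after combined silencing in the 9 genes fell from 14 to 3, those of single silencing moved from 59 and 7 to 97 and 1 (ARID1A) and from 41 and 8 to 64 and 5 (ARID1B), the higher sites of ARID1A against ARID1B from 7 to 3, the combinations against each other from 38 and 5 to 19 and 18, and the higher sites of combinations against single shRNAs from 8 to 4. Total-count scaling gave 11 higher for ARID1A against ARID1B and 10 higher between combinations.

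At FDR 0.05 the higher counts became 24 (combined), 22 (ARID1A), 22 (ARID1B), 14 (ARID1A against ARID1B), 18 (between combinations) and 16 (combinations against single shRNAs). With a log2 change of at least 1 in size, 33 and 1, 11 and 1, 6 and 0, 3 and 0, 7 and 1, and 6 and 0 sites remained for the same 6 comparisons, and 2 of the 12 KALRN sites. With sites assigned by nearest gene name only, the counts were 50 and 8, 26 and 2, 20 and 2, 17 and 3, 17 and 0, and 42 and 5, and 0 KALRN sites, since 4 KALRN sites then count. Within 100 kb of a start there were 9 higher (combined), 39 and 27 lower (ARID1A and ARID1B), 0 higher between combinations, and 7 KALRN sites.

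Leaving out each library gave 73 to 99 lower and 11 to 18 higher sites (combined), 47 to 61 and 3 to 14 (ARID1A), 25 to 44 and 4 to 12 (ARID1B), 34 to 47 and 3 to 9 (ARID1A against ARID1B), 24 to 44 and 2 to 5 (between combinations), 51 to 68 and 4 to 10 (combinations against single shRNAs), and 8 to 13 KALRN sites. The log2 change at the KALRN first-intron site ranged from -3.11 to -2.87 (combined), -2.19 to -2.06 (ARID1A) and -2.31 to -2.09 (ARID1B). Why these values moved was not tested beyond what each construction fixes.

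Replicate numbers did not meet the rule for paired libraries: of 63 pairs of same-numbered libraries in different groups 12 correlated above 0.1 (highest 0.481), with a median of 0.01 against -0.006 for different numbers. In 1 of 21 group pairs all 3 correlations were above 0.1, and 12 of 21 libraries correlated best with one of their own number. A replicate block gave 100 lower and 14 higher sites after combined silencing, 61 and 8 for ARID1A, 44 and 9 for ARID1B, 47 and 10 for ARID1A against ARID1B, 40 and 5 between combinations, 70 and 10 for combinations against single shRNAs, and 13 KALRN sites. Requiring a mean of at least 1 CPM, chosen after seeing the data, gave 88 and 14 after combined silencing. Of 6957 values of named sites under an alternative, 84 lost and 81 gained a call and none that was called changed direction. Sites under 1 CPM are limited by depth.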
